A study of Mus musculus with 8 samples.

Results

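The genes described here are imprinted growth genes other than *Igf2*: *Plagl1*, *Mest*, *Peg3*, *Ndn*, *Dlk1*, *Meg3*, *Grb10*, *Cdkn1c*, *Phlda2* and *Gnas*. They were chosen by name, and each was looked up in the gene symbol column of the deposited array table. Of these 10 genes, 9 had a row, each with 1 probe set (the group of short probes that reads out a gene), out of 22206 probe sets that name 22664 gene symbols in all. *Meg3* was looked for by its symbol, its older symbol *Gtl2*, its transcript accessions and its position, was not found in the table, and is not analysed here. The RNA came from gastrocnemius (GAS) muscle of male C57/Bl6j mice. An adeno-associated virus (AAV), which carries its cargo into muscle cells, was injected into the muscle at about 10 weeks of age. The MYTHO-KD group received AAV sh-RNA MYTHO, a short hairpin RNA that lowers the transcript of *Mytho* (listed as *D230025D16Rik*), and the scramble group received AAV sh-RNA scrmb in the contralateral leg. Muscles were taken 12 weeks later, at 22 weeks of age, and each group had 4 Clariom S Mouse arrays. Both groups therefore carried an AAV and a hairpin driven by the U6 promoter, which is not restricted to muscle fibres, and the RNA is that of the whole muscle with all its cell types.

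Imprinted genes are transcribed mainly from the copy inherited from 1 parent. Methylation marks laid down in the egg or the sperm set which copy that is. Many of them set the size of the fetus, are abundant in embryonic tissues including muscle precursors, and are turned down after birth. Several have been described as a network that shares regulation, with the zinc finger factor encoded by *Plagl1* acting on others, *Igf2* and *H19* among them. The arrays read the sum of both parental copies, so they say nothing about which copy a transcript came from.

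The promoter stretches below are shown because they hold the motifs of factors linked to imprinted genes. Promoters were taken from RefSeq on the build GRCm38.p6 (the same assembly as mm10), from 250 bases before to 50 bases after each start site. Of the 10 genes, 9 had an entry, with 16 promoters among them, and *Cdkn1c* had none. Exact matches on both strands were sought to TGCCGC, the motif of ZFP57, which guards methylated imprints, to GGGGCCCC, a motif of PLAGL1, and to the E-box CAGCTG, read by MyoD. No 2 of these motifs overlapped in the promoters shown. The ZFP57 motif was found in 5 of the 16 promoters, in *Mest*, *Plagl1*, *Grb10* and *Meg3*, and in 11.6% of all 32851 promoters. The pair of *Mest* promoters that hold it overlap almost wholly. The PLAGL1 motif was found in 1, that of *Peg3*, and in 1.08% of all promoters. The E-box was found in 2 of the 16, an upstream promoter of *Mest* and that of *Phlda2*, and in 16.3% of all. The first sequence is the 250 bases before the start site of *Mest* (chr6:30737800-30738049, plus strand), the member with the largest difference between the groups, and 62.4% of these bases are G or C. It is followed by the windows of 30 bases around the match in *Plagl1* (chr10:13090730-13090759, plus strand), *Grb10* (chr11:12037379-12037408, minus strand, 24 bases after the start) and *Peg3* (chr7:6730603-6730632, minus strand). All are written along the gene's own strand, with the motif or its reverse complement in capitals.

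Mest: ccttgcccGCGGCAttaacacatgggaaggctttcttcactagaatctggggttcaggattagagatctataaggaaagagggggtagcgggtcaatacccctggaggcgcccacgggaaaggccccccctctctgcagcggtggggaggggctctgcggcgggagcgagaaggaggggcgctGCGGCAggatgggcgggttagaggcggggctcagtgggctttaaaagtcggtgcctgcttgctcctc
Plagl1: ctggcgtgttgcGCGGCAaagcccacggca
Grb10: gggtgcggggagGCGGCAggaagggaaggg
Peg3: agactctgcttgGGGGCCCCtaacactgac

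A match says only that the letters are there. Neither the binding of a factor nor methylation was measured on these arrays.

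None of the 9 imprinted growth genes with a probe set rose or fell by the rule of the study's methods, a difference of at least 2-fold with an unadjusted p under 0.05. Of all probe sets, 0.860% passed this rule as higher in MYTHO-KD and 0.257% as lower. At an unadjusted p under 0.05 with any fold, 1 of the 9 passed as higher, *Mest*, and none as lower, beside 6.48% and 5.52% of all probe sets. A single member past this limit is close to what those shares amount to. After adjustment over all probe sets, 0 of the members stayed under 0.05 by limma, beside 0.275% of all probe sets, and their adjusted p ran from 0.330 to 0.934. By direction alone, 6 of the 9 were higher in MYTHO-KD and 3 were lower. Their median difference was 0.23 on the log2 scale, against -0.01 over all probe sets, of which 46.9% were higher. The table holds 1 average and 1 SD per group, so the values of single arrays, and whether the groups overlap, cannot be given. All averages below are the authors' averages on the log2 scale, and every difference is MYTHO-KD minus scramble. The p-values measure only the spread between these arrays. They and the intervals treat the groups as unpaired, although the scramble virus went into the contralateral leg. In RNA of whole muscle, fewer cells of a type and less RNA per cell cannot be told apart.

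**Figure D1:**
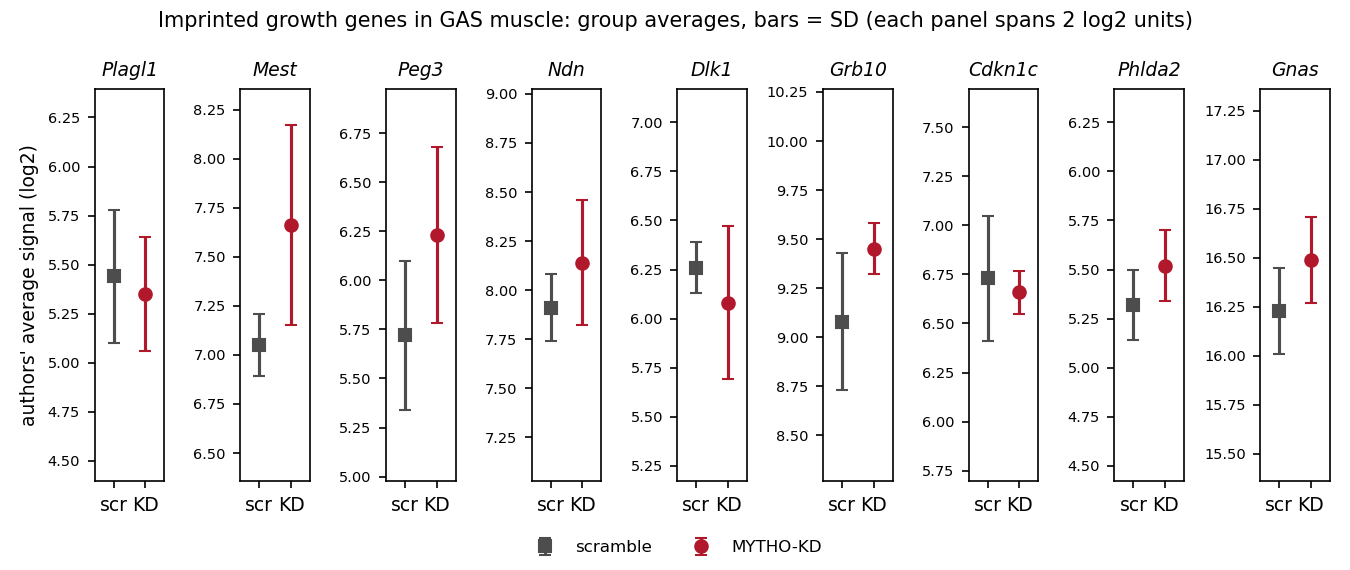
Authors' average signal (log2, vertical axis) of each imprinted growth gene in the scramble group (grey squares) and the MYTHO-KD group (red circles), with the authors' SD as bars and 4 arrays per group; each panel has its own axis, which spans the same range, and signals of different genes are not comparable. *Mest* and *Peg3* show the widest gaps between the groups, and the SD bars of *Mest* are unequal.

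*Plagl1* encodes the zinc finger factor that acts on other imprinted genes. Its average was 5.35 (SD 0.29) in MYTHO-KD and 5.44 (SD 0.34) in scramble (chromosome 10, 13060504 to 13131695). The difference of -0.09 (log2, standard error 0.213, 95% interval -0.55 to 0.37, adjusted p = 0.923, limma) was smaller than either SD. The signal lay under 5.715, the 30th percentile of all probe sets. The related zinc finger genes *Plag1* and *Plagl2* did not pass the test either, with differences of -0.15 and -0.32.

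*Mest* encodes a protein of the alpha/beta hydrolase fold that is named for its expression in mesoderm and is known to rise in expanding fat. Its average was 7.66 in MYTHO-KD and 7.05 in scramble (chromosome 6, 30723547 to 30748466). The difference of 0.61 (log2, standard error 0.237, 95% interval 0.09 to 1.13) corresponds to 1.53-fold, and it was the only one of the 9 whose interval did not hold 0. The unadjusted p was 0.0245 in limma's moderated test, and the adjusted p was 0.330. The SD was 0.51 in MYTHO-KD against 0.16 in scramble, so the MYTHO-KD arrays differed more among themselves. When each group kept its own variance, the unadjusted limit was no longer passed (unadjusted p = 0.0923), nor was it without moderation of the variances (unadjusted p = 0.0626).

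*Peg3*, also known as Pw1, encodes a large zinc finger protein made by muscle progenitors in the spaces between fibres. Its average was 6.23 (SD 0.45) in MYTHO-KD and 5.72 (SD 0.38) in scramble (chromosome 7, 6703892 to 6730421). The difference was 0.51 (log2, standard error 0.253, 95% interval -0.04 to 1.06), or 1.42-fold. With an unadjusted p of 0.0667 and an adjusted p of 0.453 in limma's moderated test, it did not pass, and the interval runs from just under 0 to just above 2-fold.

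*Ndn* encodes necdin, a protein of the MAGE family that is known to favour exit from the cell cycle and differentiation in myoblasts and neurons. Its average was 8.14 (SD 0.32) in MYTHO-KD and 7.91 (SD 0.17) in scramble (chromosome 7, 62348277 to 62349928). The difference was 0.23 (log2, standard error 0.191, 95% interval -0.19 to 0.65, adjusted p = 0.702, limma). The gap was smaller than the SD of the MYTHO-KD arrays. Of the relatives of necdin listed, *Maged2* stood at 0.10 and *Maged1* at 0.99 (log2, standard error 0.281, adjusted p = 0.179, limma), just under 2-fold, with averages of 7.55 in MYTHO-KD and 6.56 in scramble.

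*Dlk1* encodes a membrane protein with EGF-like repeats that can hold back Notch signalling and fat cell formation, and whose excess causes muscle overgrowth in callipyge sheep. Its average was 6.08 (SD 0.39) in MYTHO-KD and 6.26 (SD 0.13) in scramble (chromosome 12, 109452823 to 109463336). The difference of -0.18 (log2, standard error 0.203, 95% interval -0.62 to 0.26, adjusted p = 0.799, limma) was the lowest of the 9. *Dlk1* thus gave a slightly lower average in MYTHO-KD, within the spread of the arrays.

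*Grb10* encodes an adaptor protein that binds the insulin and IGF receptors and damps their signal. Its average was 9.45 (SD 0.13) in MYTHO-KD and 9.08 (SD 0.35) in scramble (chromosome 11, 11930499 to 12038683). The difference was 0.37 (log2, standard error 0.194, 95% interval -0.05 to 0.79), or 1.29-fold, with an adjusted p of 0.480 (limma). The spread was larger in the scramble arrays, the reverse of *Mest*. Its relative *Grb14*, an adaptor of the same family that also inhibits the insulin receptor and is not imprinted, had an average of 7.04 in scramble and rose to 8.20, a difference of 1.16 (log2, standard error 0.317, adjusted p = 0.162, limma).

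*Cdkn1c*, an inhibitor of cyclin-dependent kinases that limits fetal growth, had averages of 6.66 (SD 0.11) in MYTHO-KD and 6.73 (SD 0.32) in scramble (chromosome 7, 143458339 to 143461050). Its difference of -0.07 (log2, standard error 0.186, 95% interval -0.47 to 0.33, adjusted p = 0.934, limma) was the closest to 0 of the 9. *Phlda2*, which lies in the same domain, encodes a pleckstrin homology protein that restrains the growth of the placenta. Its averages were 5.52 in MYTHO-KD and 5.32 in scramble, and both SDs were 0.18 (chromosome 7, 143501545 to 143502541). Its difference was 0.20 (log2, standard error 0.168, 95% interval -0.17 to 0.57, adjusted p = 0.706, limma), on a signal that, like that of *Plagl1*, lay under the 30th percentile. Relatives of this pair that are not imprinted differed among themselves, with *Cdkn1b*, an inhibitor of the same kinases, at -0.01 and *Phlda1* at 0.01. *Cdkn1a*, a kinase inhibitor induced by p53, rose by 1.75 (log2, standard error 0.523, adjusted p = 0.200, limma), and its SD was 1.29 in the knockdown arrays and 0.58 in the scramble arrays. *Phlda3*, which p53 also induces and whose product restrains AKT, rose from 9.98 to 11.62, a difference of 1.64 (log2, standard error 0.269, adjusted p = 0.0351, limma). Its adjusted p was 0.226 without moderation and 0.429 with unequal variances.

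*Gnas* encodes the stimulatory G protein alpha subunit, which couples cell surface receptors to cyclic AMP, and the locus also gives rise to imprinted transcripts from other promoters that 1 probe set cannot tell apart. Its average was 16.49 in MYTHO-KD and 16.23 in scramble, and both SDs were 0.22 (chromosome 2, 174284320 to 174346744). The difference was 0.26 (log2, standard error 0.179, 95% interval -0.13 to 0.65, adjusted p = 0.622, limma). It did not pass the test.

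For 7 of the 9 members the 95% interval of the difference lay inside 2-fold in both directions. The exceptions were *Mest* and *Peg3*, for which a rise of 2-fold lies within the interval. These intervals are not adjusted for the number of genes and cover only the spread between these arrays. A difference that missed the test is not shown to be absent.

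**Figure D2:**
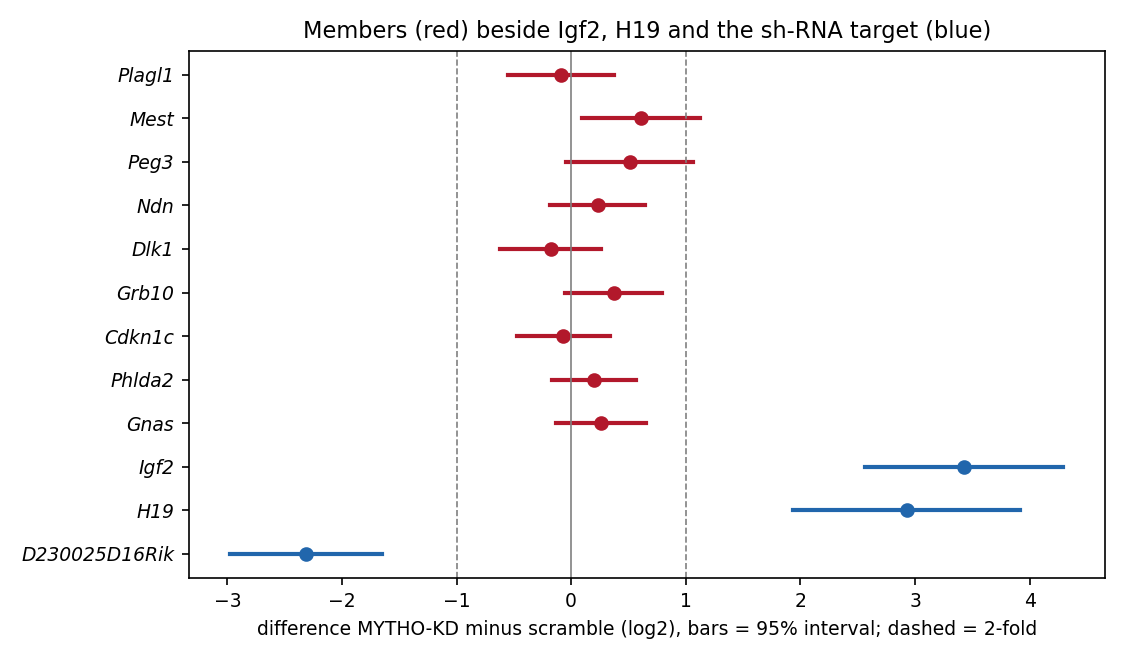
Difference between MYTHO-KD and scramble (log2, horizontal axis) for each imprinted growth gene (red) and for *Igf2*, *H19* and *D230025D16Rik* (blue), with the 95% interval of limma's moderated test as bars and dashed lines at 2-fold. The members lie between -0.18 and 0.61, while *Igf2* lies at 3.43, *H19* at 2.93 and *D230025D16Rik* at -2.31.

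The knockdown and the *Igf2* locus set the scale for these values. *D230025D16Rik* fell by 2.31 on the log2 scale (adjusted p = 0.0138, limma), to 20.2% of the scramble signal. *Igf2*, a fetal growth factor, rose by 3.43 (standard error 0.395, adjusted p = 0.00656, limma), and the non-coding RNA *H19*, whose probe set also names the microRNA it hosts, rose by 2.93 (standard error 0.454, adjusted p = 0.0292, limma). *Igf2* and *Cdkn1c* lie on the same chromosome, with starts at 142650766 and 143458339, and no interval of a member reaches the lower bound of *H19*, 1.94. With unmoderated variances, adjusted p-values came to 0.173 for *D230025D16Rik*, 0.156 for *Igf2* and 0.246 for *H19*. Differences between 2 genes measured on the same arrays were not tested, since this needs the values of single arrays.

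Beside *Igf2* and *H19*, 17 of the other imprinted genes outside the members' own domains were measured. *Slc38a4*, an imprinted transporter of neutral amino acids, was the only further one to pass 2-fold with an unadjusted p under 0.05. The scramble average was 14.79 (SD 0.37) and it fell to 13.22 (SD 0.44), a difference of -1.57 (log2, standard error 0.249, adjusted p = 0.0292, limma; chromosome 15, 96994823 to 97055956). Without moderation its adjusted p was 0.210. *Slc38a4* thus moved against *Igf2* and *H19*. The 16 genes that were not called ran from -0.46 to 0.44, among them *Igf2r*, which clears IGF2 from the cell surface (0.26), the matrix proteoglycan gene *Dcn* (0.28), *Peg10* (0.13) and *Sgce* (-0.19). The median of all 19 was 0.09. Of these 19 probe sets, 2 were called higher and 1 lower, beside 0.86% and 0.257% of all probe sets.

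In imprinted domains, genes share a control region, so the neighbours of the members were listed as well. Of 39 neighbours named, 32 were in the table on 31 probe sets, since *Snrpn* and *Snurf* share one. None of the 31 was called, 15 were higher and 16 lower, and the median difference was -0.01. At an unadjusted p under 0.05, 1 of the 31 was higher and 4 were lower, beside 6.48% and 5.52% of all probe sets. All 4 neighbours of *Mest* had lower averages in MYTHO-KD, from -0.65 for *Tsga13* (unadjusted p = 0.0402, limma) to -0.01 for *Klf14*. The signals of *Tsga13*, *Klf14* and *Cpa4* lay under 5.715. *Copg2*, transcribed toward *Mest* from the other strand and overlapping its end, was at -0.20 and did not pass the test. The neighbours of *Grb10* went in both directions. *Cobl*, which encodes an actin nucleator, stood at 0.64 (adjusted p = 0.179 in limma, standard error 0.182), with averages of 12.91 in MYTHO-KD and 12.27 in scramble. *Ddc*, a decarboxylase gene imprinted in the heart, was at -0.47 (adjusted p = 0.317, limma), on a signal under 5.715.

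Around *Cdkn1c* and *Phlda2*, 5 of 10 neighbours were higher and 5 lower, and the non-coding RNA *Kcnq1ot1*, which silences this domain in cis, stood at 0.06. The potassium channel gene *Kcnq1* was at -0.42 and the histone chaperone gene *Nap1l4* at -0.46, each with an unadjusted p under 0.05. The signal of *Kcnq1* lay under 5.715. In the domain of *Dlk1*, the differences were 0.24 for *Rtl1*, a gene derived from a retrotransposon whose probe set also names *Mir3071*, -0.09 for the deiodinase gene *Dio3* and -0.11 for *Begain*, and of these 3 only *Begain* was marked as expressed in both groups. In the domain of *Peg3*, *Zim1* was at 0.21 and *Usp29*, not marked as expressed in either group, at 0.27. Around *Ndn*, 3 probe sets were higher and 3 lower, from -0.35 for *Magel2* to 0.22 for *Mkrn3*, both with signals under 5.715. The shared probe set of *Snrpn* and *Snurf* was at -0.08. Next to *Plagl1*, *Phactr2* stood at 0.25 and *Sf3b5* at 0.12, and next to *Gnas*, *Stx16* stood at -0.19 and *Npepl1* at 0.11. No member or neighbour passed 2-fold.

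**Figure D3:**
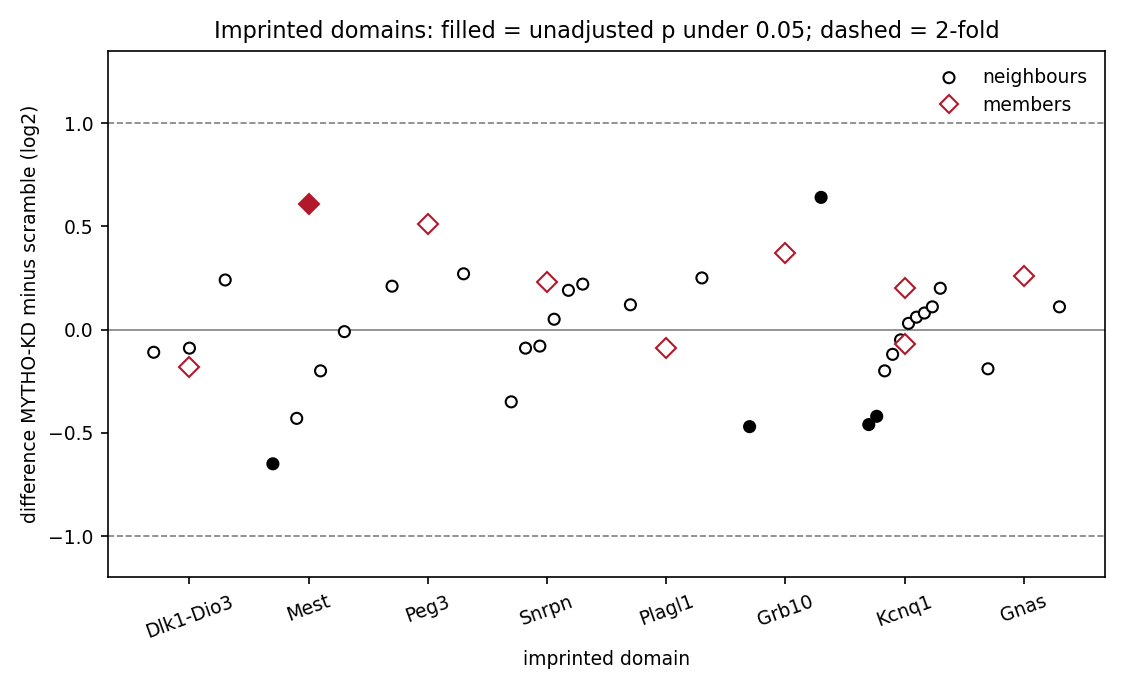
Difference between MYTHO-KD and scramble (log2, vertical axis) for members (red diamonds) and their neighbours (black circles) in each imprinted domain; filled symbols have an unadjusted p under 0.05 and dashed lines mark 2-fold. All symbols lie between -0.65 and 0.64.

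The partners of the members in signalling were read from lists of the same kind. For *Dlk1*, the 15 genes of the Notch pathway had a median difference of 0.03, and none was called. The coactivator gene *Maml1* was the only one with an unadjusted p under 0.05, at -0.46 (adjusted p = 0.328, limma), and the target genes *Hes1*, *Hey1* and *Heyl* stood at 0.09, 0.21 and 0.18. For *Grb10*, the 9 genes of insulin and IGF receptor signalling had a median of 0.04, and only *Grb14*, given above, was called. The receptor genes *Insr* and *Igf1r* differed by 0.04 and -0.10, and *Irs1* and *Irs2*, the substrates of these receptors, by 0.24 and -0.09.

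For *Gnas*, the 18 genes of Gs and cyclic AMP signalling had a median of 0.325, the highest of these signalling lists. No gene was called, and 12 were higher and 4 lower. Beside 6.48% of all probe sets as higher and 5.52% as lower at an unadjusted p under 0.05, 3 of these 18 genes passed, all of them higher. These were *Ric8b*, which encodes a chaperone of the stimulatory alpha subunit, at 0.70 (standard error 0.216, adjusted p = 0.213, limma), and the adenylyl cyclase genes *Adcy6* at 0.63 (adjusted p = 0.274) and *Adcy7* at 0.54 (adjusted p = 0.275). The catalytic subunit gene *Prkaca* of the cyclic AMP-dependent kinase stood at 0.35. Of the 6 further kinase inhibitor genes listed beside *Cdkn1c*, *Cdkn1a* alone was called, and the other 5 ran from -0.22 to -0.01.

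The 19 genes that write, read or keep imprints had a median of -0.06, with 7 higher and 12 lower, and none was called. *Zfp445*, whose product guards imprints together with ZFP57, was at -0.59 (standard error 0.209, adjusted p = 0.287, limma), with averages of 9.53 in MYTHO-KD and 10.12 in scramble. *Ctcf*, the insulator factor that binds between *Igf2* and *H19*, was at -0.38 with an unadjusted p of 0.0498 (limma), which rose to 0.0699 when each group kept its own variance. The maintenance methyltransferase gene *Dnmt1* stood at -0.02, *Uhrf1* at -0.11, *Trim28* at -0.29 and *Zfp57* itself at -0.14, on a signal under 5.715. The highest of the list was the histone methyltransferase gene *Ehmt2* at 0.33, followed by *Dppa3* at 0.22, whose signal also lay under 5.715.

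**Figure D4:**
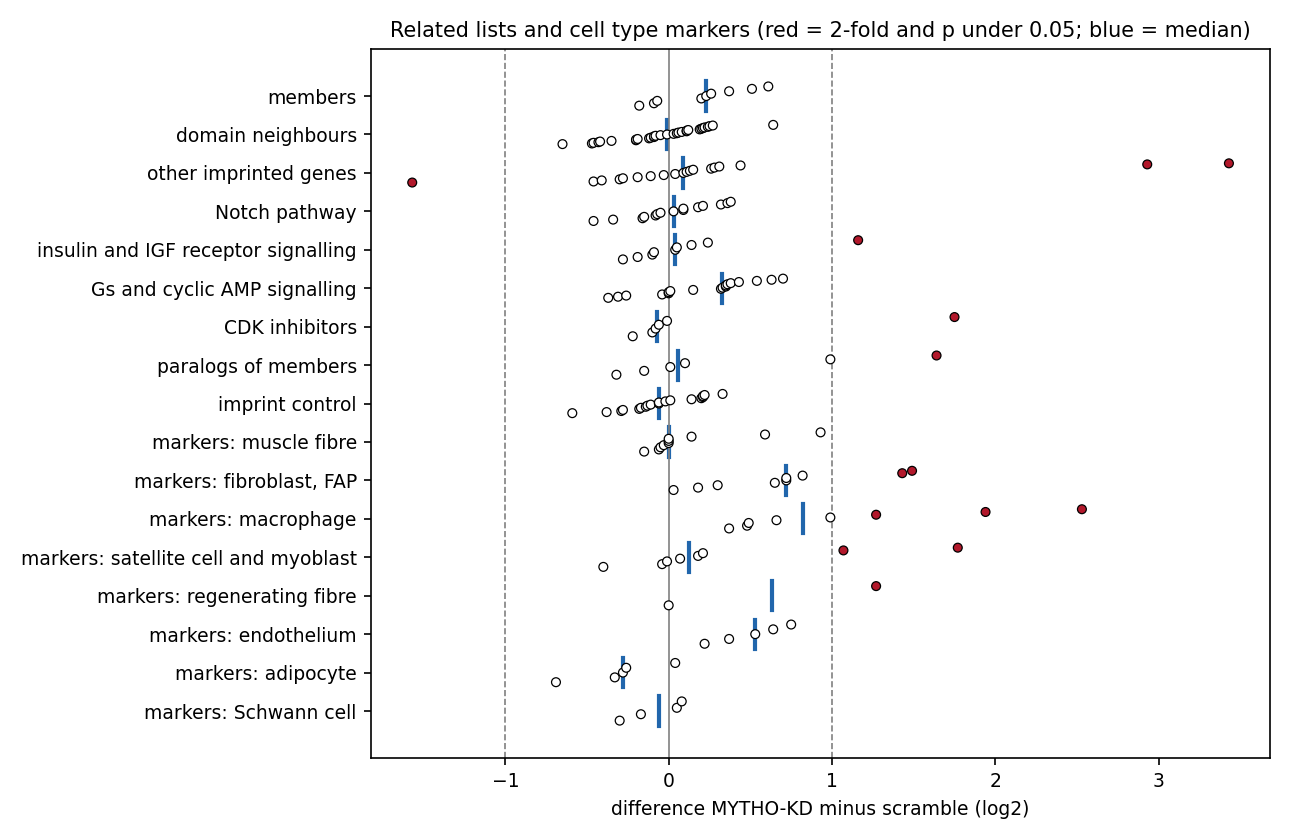
Difference between MYTHO-KD and scramble (log2, horizontal axis) of each gene in the lists read beside the members and in the cell type marker lists; red points are called at 2-fold with an unadjusted p under 0.05, blue bars are list medians and dashed lines mark 2-fold (FAP, fibro-adipogenic progenitor). The members sit near the centre, and the macrophage markers have the highest median, 0.825.

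Because several members are made in cells between the fibres, cell type markers were read in the same arrays. The tissue label held: the 10 muscle fibre markers were all marked as expressed, and 7 of them had an average above 19, near the top of the scale. The median difference of these markers was 0.00 (summed linear signal 6820057 in MYTHO-KD against 6403795 in scramble). None was called, with myoglobin, *Mb*, at 0.93 (adjusted p = 0.0754, limma) and the fast myosin gene *Myh1* at 0.59 (adjusted p = 0.230, limma). The median rests on *Acta1*, *Myh4* and *Myl1*, which read 19.93 with an SD of 0.00 in both groups. As 19.93 is the highest average of all probe sets, a difference in these genes could not be seen. The median is therefore no measure of fibre content. All 9 fibroblast and fibro-adipogenic progenitor markers were higher in MYTHO-KD (median 0.72). *Lum* rose by 1.49 and *Col3a1* by 1.43. An unadjusted p under 0.05 (limma) was missed by 5 of the 9, among them *Dpt* at 0.30, *Pdgfra* at 0.18 and *Thy1* at 0.03. The summed linear signal of all 9 was 36592 in MYTHO-KD and 21886 in scramble. Such sums are carried by the brightest probe sets, here *Ly6a*, which stood at 0.72 with averages of 14.16 and 13.44. All 8 macrophage markers were higher (median 0.825, summed signal 4756 against 1958), with called rises of *Cd68* by 2.53, *Lyz2* by 1.94 and *C1qb* by 1.27. The 5 endothelial markers were higher as well (median 0.53, summed signal 21112 against 14909), and none was called, with *Kdr* at 0.75 and *Eng* at 0.64. Of 8 satellite cell and myoblast markers 5 were higher (median 0.125, summed signal 853 against 606), with called rises of *Mymk*, listed as *Tmem8c*, by 1.77 and *Chrna1* by 1.07. The others did not pass the test: *Myog* stood at 0.21, *Pax7* at 0.18 and *Cdh15* at 0.07. *Myod1* was lower at -0.40, *Myf5* at -0.04 and *Mymx*, listed as *Gm7325*, at -0.01. Of the 2 regenerating fibre markers, *Myh3* rose by 1.27. *Myh8* read 19.93 with an SD of 0.00 in both groups, the top of the scale, so a difference could not be seen. It makes up nearly all of their summed signal of 999126 against 999001. By RT-qPCR in the tibialis anterior muscle, the study reports higher *Myh8* at various times after the knockdown. The 5 adipocyte markers had a median of -0.28, while their summed signal went the other way, 22314 against 21853. Some of them varied widely within groups. The SD of *Adipoq* was 2.13 in MYTHO-KD and 2.22 in scramble, and that of *Cidec* 1.41 and 1.40. Over all probe sets the median SD was 0.27 in each group. The 4 Schwann cell markers had a median of -0.06 (summed signal 348 against 364). No adipocyte or Schwann cell marker was called. Every marker in these lists was marked as expressed in both groups. What part these markers' cells have in the differences of *Mest*, *Peg3* or *Ndn* was not tested.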

How the data were processed

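Total RNA from GAS muscle was hybridized to Clariom S Mouse arrays, 4 for AAV sh-RNA MYTHO and 4 for AAV sh-RNA scramble, grouped by the sample titles. The authors normalized the signals by SST-RMA with default settings of the Transcriptome Analysis Console, and deposited log2 averages and SDs of each group, written with a decimal comma, and a flag for expression. The submitters' notes name Affymetrix Expression Console and RMA. Whether these are plain means is not given in the sources used here, and with another average the p-values may be somewhat too low. The deposited fold changes, p-values and false discovery rates were not used. Columns of single samples left unmatched numbered 0.

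The design asked for limma on single arrays. Only averages and SDs were used, so limma 3.58.1 in R 4.3.3 was applied to them: the mean of both group variances with 6 residual degrees of freedom, moderated by squeezeVar (prior SD 0.284, prior degrees of freedom 5.85), two-sided p-values, and Benjamini-Hochberg adjustment over all 22206 probe sets. In 21 probe sets an SD was 0, and the moderation gave these a variance above 0. A call needed 2-fold and an unadjusted p under 0.05. SST-RMA also transforms the signal scale, so fold sizes depend on it. The number of arrays limits the precision. The fit was tested on simulated data.

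For each gene the probe set with the highest mean signal was used. Coordinates are those of the table (mm10). Named genes are all members, *D230025D16Rik*, *Igf2*, *H19*, the called genes of each list, up to 3 with an unadjusted p under 0.05 where fewer were called, and genes of the members' domains. Further genes are named with their values for their role, and were chosen after their values were seen. Members and lists were chosen with earlier results of these data known. Also tried were unmoderated variances, a robust fit with a trend, unequal variances, dim probe sets left out (mean under 5.715), probe sets expressed in both groups, 1 probe set per symbol, and other thresholds.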

Additional observations from a re-analysis of the deposited data

How the results depend on the processing

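The 6 other fits changed the variances or the probe sets kept and left each difference as it was, so they bear on p-values alone and not on fold or direction. The unadjusted limit of 0.05 was kept or missed as before in 50 of 52 refits of the members, and the exceptions were both *Mest*, whose difference of 0.61 no longer passed without moderation (unadjusted p = 0.0626) or with unequal variances (unadjusted p = 0.0923). Over these fits the adjusted p of *Mest* ran from 0.276 to 0.608 in limma's test or its unmoderated forms. With dim probe sets left out, the members *Plagl1* and *Phlda2* and the neighbours *Tsga13* and *Ddc* gave no value. Of 178 refits of the other named genes, 167 stayed on their side of that limit, and 11 lost it (*Tsga13*, *Cdkn1a*, *Ctcf*, *Myh3* and *Eng*). Adjusted p-values were less stable: those of *D230025D16Rik*, *Igf2*, *H19*, *Slc38a4* and *Phlda3*, all under 0.05 in limma's moderated test, ran from 0.156 to 0.246 without moderation and from 0.344 to 0.429 with unequal variances, and that of *H19* was 0.0687 with a trend and robust fit.

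Thresholds moved the counts. With the limit at 1.5-fold, 787 probe sets lay higher and 500 lower, against 191 and 57 at 2-fold, with 1 member higher (*Mest*) and 9 genes of the related lists higher and 3 lower, against 5 and 1. At an unadjusted p under 0.05 with any fold, 1439 probe sets were higher and 1225 lower, with 1 member higher, and 10 list genes higher and 9 lower. At 2-fold with an adjusted p under 0.05, 38 and 19 probe sets passed, with 3 list genes higher and 1 lower. In the other fits 153 to 190 probe sets were higher and 48 to 57 lower.

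No paired analysis was possible because the columns hold group averages and not the arrays of each leg. For the same reason, fits that leave out 1 array at a time were not run. Each member had 1 probe set, and no other was tried. *Plagl1* and *Phlda2* lay in the dimmest 30% of probe sets.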
